A study of Rattus norvegicus with 63 samples.

Results

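The renin-angiotensin genes and neprilysin were followed in rat kidney in the hours and days after the glucocorticoid drug methylprednisolone was injected. The 4 genes were Agt, Ace, Agtr1a and Mme, and every probe set annotated with 1 of these symbols alone was taken from both array tables. A probe set is a group of short probes that read out the same transcript. This gave 14 of 24606 probe sets for 4 of 10620 named genes, with 6 probe sets on the main array type and 8 on another, second type. Of these, 12 lay above the filter on dim probe sets and were tested, all but 2 of the main type among them. Those 2 were both of its Ace probe sets. The set was not chosen by its measured values, but earlier results of these data were known when it was proposed.

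The RNA was total RNA of whole kidney, read on Affymetrix arrays. The labels describe an untreated group at 0 h and groups killed at 16 times from 0.25 to 72 h after the injection. On the main array type 4 of the 52 libraries are untreated and every later time has 3, while the second type has 10 libraries, of which 4 are untreated, 3 are from 2 h and 3 from 6 h. A library here is one numbered RNA sample, and the 2 arrays of 5 h replicate 1 were averaged into 1 library. The labels used here name no strain, age, sex, dose, adrenal state or hour of day. No untreated rat was taken later than 0 h, so effects of the drug, of handling and of the hour of day cannot be told apart. The labels do not say that numbered samples came from separate animals, so p-values reflect only how far these samples spread, and that spread may be technical. In whole kidney, fewer cells of a type and less RNA per cell cannot be told apart.

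Angiotensinogen, the product of Agt, is a secreted precursor made mainly in liver and also in the proximal tubule of the kidney. It is cut to angiotensin I, which angiotensin-converting enzyme, the product of Ace, turns into angiotensin II. Angiotensin II acts through the type 1a receptor encoded by Agtr1a, which in kidney is found on vessels, mesangial cells and tubules, where it raises vascular tone and sodium retention. Neprilysin, the product of Mme, is a membrane peptidase of the proximal tubule brush border and of podocytes that degrades natriuretic peptides, kinins and angiotensins.

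The receptor and neprilysin carried the changes described next, so the 250 bases before the annotated start of each are shown. They come from RefSeq on the GRCr8 build, at chr17:34435433-34435682 on the minus strand for Agtr1a and chr2:149872247-149872496 on the plus strand for Mme, and run 5′ to 3′ on the strand of the gene. Capitals mark the motif TATAAA.
Agtr1a: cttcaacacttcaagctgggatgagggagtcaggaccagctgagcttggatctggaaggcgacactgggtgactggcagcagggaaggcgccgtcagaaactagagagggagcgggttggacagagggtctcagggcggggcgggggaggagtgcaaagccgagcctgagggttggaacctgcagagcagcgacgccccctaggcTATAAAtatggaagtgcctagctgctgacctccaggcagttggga
Mme: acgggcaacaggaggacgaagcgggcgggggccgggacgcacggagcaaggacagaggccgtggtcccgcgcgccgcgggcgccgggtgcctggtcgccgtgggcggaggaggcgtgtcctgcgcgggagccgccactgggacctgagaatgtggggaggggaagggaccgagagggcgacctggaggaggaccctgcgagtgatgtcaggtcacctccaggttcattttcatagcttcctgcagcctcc
The Agtr1a stretch holds TATAAA 45 bases before the annotated start, and the Mme stretch holds no match on either strand. Of 33469 promoters of the same length, 12.9% hold TATAAA on either strand. The 2 stretches differ in base composition, with 60.8% G or C in Agtr1a and 70.4% in Mme, and with 9 and 25 CG pairs. The G or C content of Agtr1a was at or above that of 77.4% of promoters and that of Mme at or above that of 92.8%. Neither stretch contains AGAACA, the unit of the glucocorticoid receptor motif, which 17.5% of promoters hold, nor the AP-1 motif TGANTCA, which 6.34% hold. Each motif was read on both strands, no motif overlaps another by its letters, and a missing match says only that those letters are not in this window. The Ace stretch at chr10:91409879-91410128 holds TATAAA on the other strand, 42 bases before the start.

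The label check came first. The 4 label-check genes Fkbp5, Tsc22d3, Per1 and Sgk1, which glucocorticoids are known to induce, all rose at 5 to 8 h. Their summed signal ran from 691 to 1120 in the 0 h libraries, from 3342 to 6235 at 5 to 8 h, and from 715 to 894 at 30 to 72 h. Proximal tubule markers were bright in every library, with a summed signal of 35542 to 40183 at 0 h and 30343 to 40723 at 5 to 8 h. Acute phase genes (plasma and inflammation proteins such as fibrinogen and haptoglobin) numbered 8 on the main type, 4 of them above the filter, and 7 on the second. In 7 libraries of the main type and 1 of the second, these genes averaged more than 1 log2 unit above the median of the libraries of the same time. The libraries were 0.25 h replicate 2, 0.5 h replicate 3, 1 h replicate 2, 5 h replicate 2, 6 h replicate 1, 7 h replicate 3 and 8 h replicate 1, and 6 h replicate 1 of the second type. On the main type, values without these libraries are given beside the results they change. For the second type, only the counts of called member probe sets are given, in the closing section on processing.

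The angiotensin receptor transcript fell at 5 to 8 h, and at 12 h its libraries again spanned the untreated range. Probe set 1384240_at gave signals of 179, 186, 194 and 237 in the 4 libraries at 0 h. It read 107, 173 and 127 at 5 h, 130.2, 119.7 and 119 at 5.5 h, and 158, 82.3 and 105 at 6 h. At 7 h it read 162, 154 and 117, and at 8 h 138, 101 and 141. All 15 libraries of 5 to 8 h lay below the lowest library at 0 h, a pattern met by 1.59% of the 9520 probe sets tested. The mean difference was -0.61 ± 0.14 on the log2 scale (SE, 95% interval -0.89 to -0.33, limma, adjusted p = 0.0022), a 1.53-fold lower level. Across all probe sets, 9.71% passed in this comparison in either direction and 4.73% were lower.

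The second Agtr1a probe set of the main type, 1369291_at, is a separate reading of the same gene. Its signals at 0 h were 127, 136, 128 and 170.5. At 5.5 h it read 105, 66.4 and 43.8, and at 6 h 115, 101 and 53.9. At 5 h the replicates read 58.1, 124 and 116, the first of them the average of 2 arrays at 35.6 and 92.4. Every one of the 15 libraries of 5 to 8 h was below the 0 h mean, although the highest, 129 at 7 h, was above the lowest at 0 h. The log2 difference was -0.59 ± 0.19 (SE, limma, adjusted p = 0.0403). The fall of this probe set was less firm than that of 1384240_at, since leaving out 1 library at a time ended the call in 9 of 52 cases, with an adjusted p of 0.0551 to 0.183. These were each of the 4 libraries at 0 h, 5 h replicate 1, 5.5, 6 and 7 h replicate 3, and 8 h replicate 1. The highest came without 0 h replicate 4, where the difference was -0.50.

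By single times, Agtr1a passed only in the middle of this window. Probe set 1384240_at fell by 0.65 at 5.5 h (limma, adjusted p = 0.0282) and by 0.79 at 6 h (adjusted p = 0.00633), and 1369291_at fell by 0.96 at 5.5 h (adjusted p = 0.0159). Of all probe sets, 2.22% were called lower at 5.5 h and 2.28% at 6 h. Before the fall, 1384240_at read 268, 264 and 198 at 2 h, its highest time mean at 241, and 174, 156 and 145 at 4 h. After it, the signals were 198, 301 and 169 at 12 h, 202, 185 and 151 at 18 h, and 197, 250.3 and 203 at 30 h. Thus the 12 h libraries reached from inside the 5 to 8 h range to above every library at 0 h. Ordered by time mean, the levels ran from 241 at 2 h through 198 at 0 h to 111 at 6 h, and all 16 neighbouring pairs of times in that order had overlapping libraries.

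**Figure D1:**
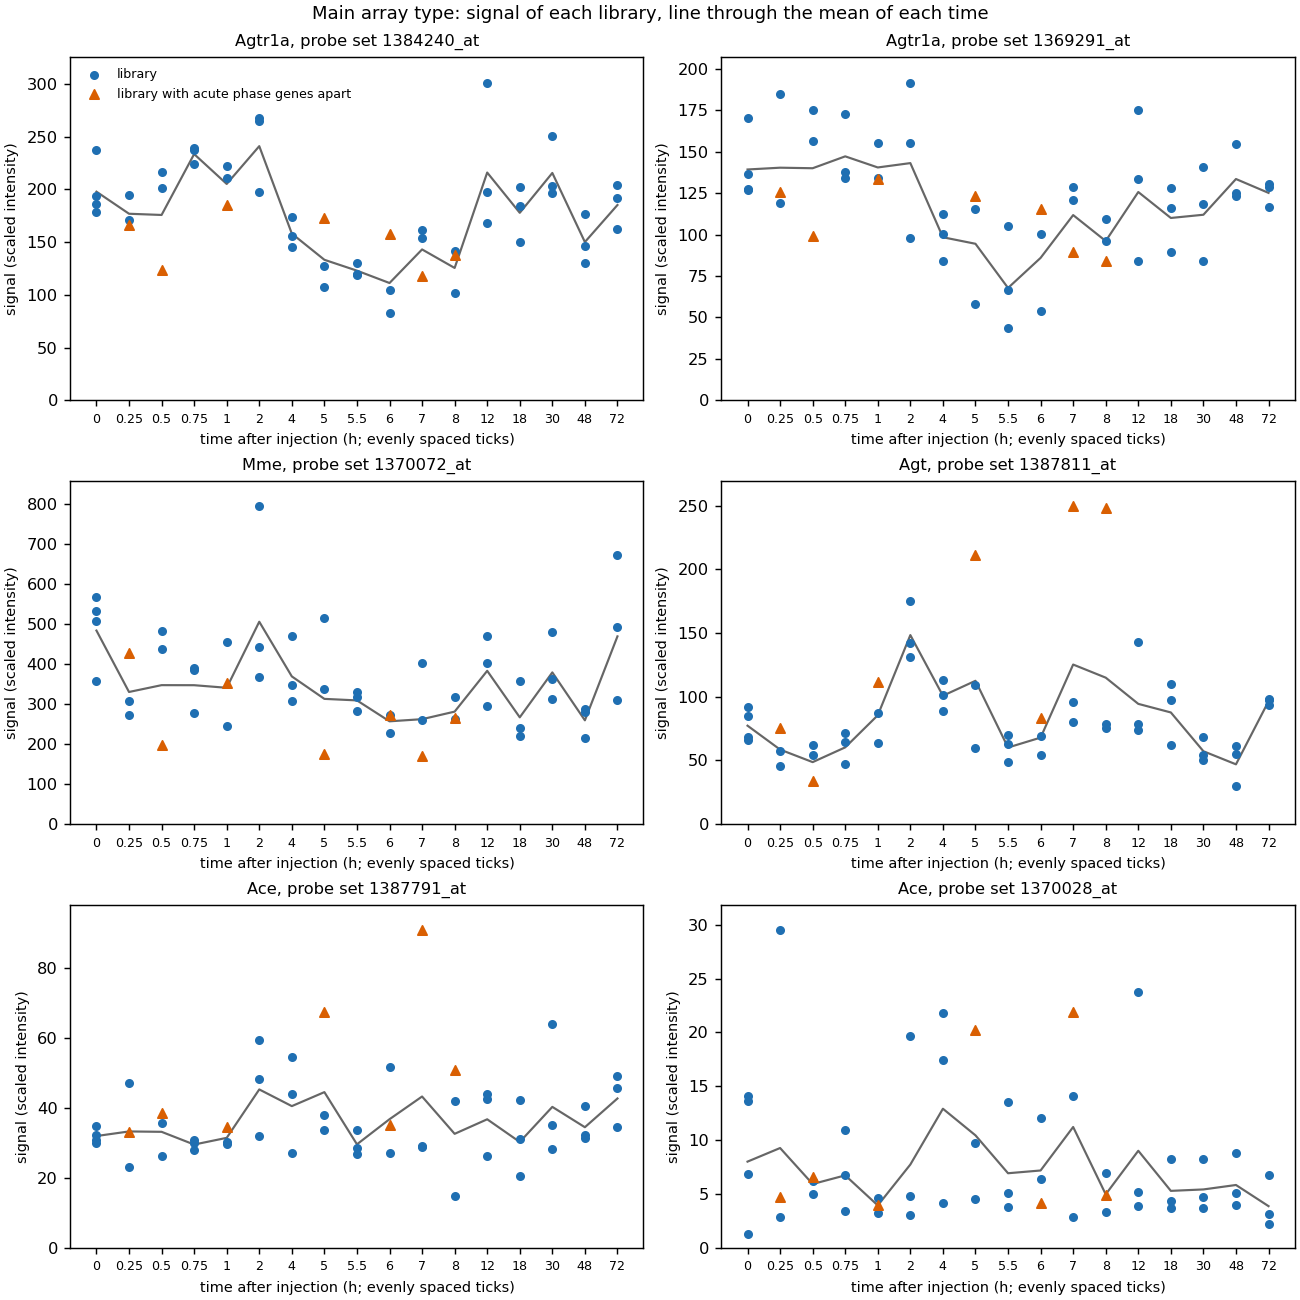
Signal of each library (linear scale, authors' array scaling) against hours after the injection for the 6 member probe sets of the main array type; the line joins the time means taken on the log2 scale, and triangles mark the libraries whose acute phase genes stood apart. Agtr1a 1384240_at had all 15 libraries of 5 to 8 h below the 4 at 0 h, and the 3 highest Agt signals were 211, 249 and 249.7.

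The receptor was also lower at 5 to 8 h than late after the injection, a comparison that uses no untreated rat. Probe set 1384240_at differed from 30 to 72 h by -0.49 ± 0.10 on the log2 scale (SE, limma, adjusted p = 0.000387), with all 15 libraries below the late mean. Probe set 1369291_at differed by -0.42 ± 0.14 (SE, limma, adjusted p = 0.025), with 13 of 15 libraries below it, and leaving out 30 h replicate 3 or 48 h replicate 2 took its adjusted p to 0.0619 and 0.0574. In this comparison 13.8% of all probe sets were called lower and 12.5% higher. Cell type markers were lower in it too: 11 of 19 proximal tubule markers fell and 2 rose (median -0.29), 4 of 6 podocyte markers fell (-0.32), 3 of 8 endothelial markers fell (-0.22) and 2 of 4 smooth muscle, mesangium and pericyte markers fell (-0.29). Podocyte marker sums were 1092 to 1341 at 30 to 72 h. The part of these shifts in the difference of Agtr1a was not tested. At 6 h against 30 h, which are 24 h apart in elapsed time, 1384240_at differed by -0.91 ± 0.20 (SE, limma, adjusted p = 0.00328), against 2.15% of all probe sets called lower. Without 6 h replicate 2, whose signal was 82.3, the adjusted p of that difference was 0.0718.

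**Figure D2:**
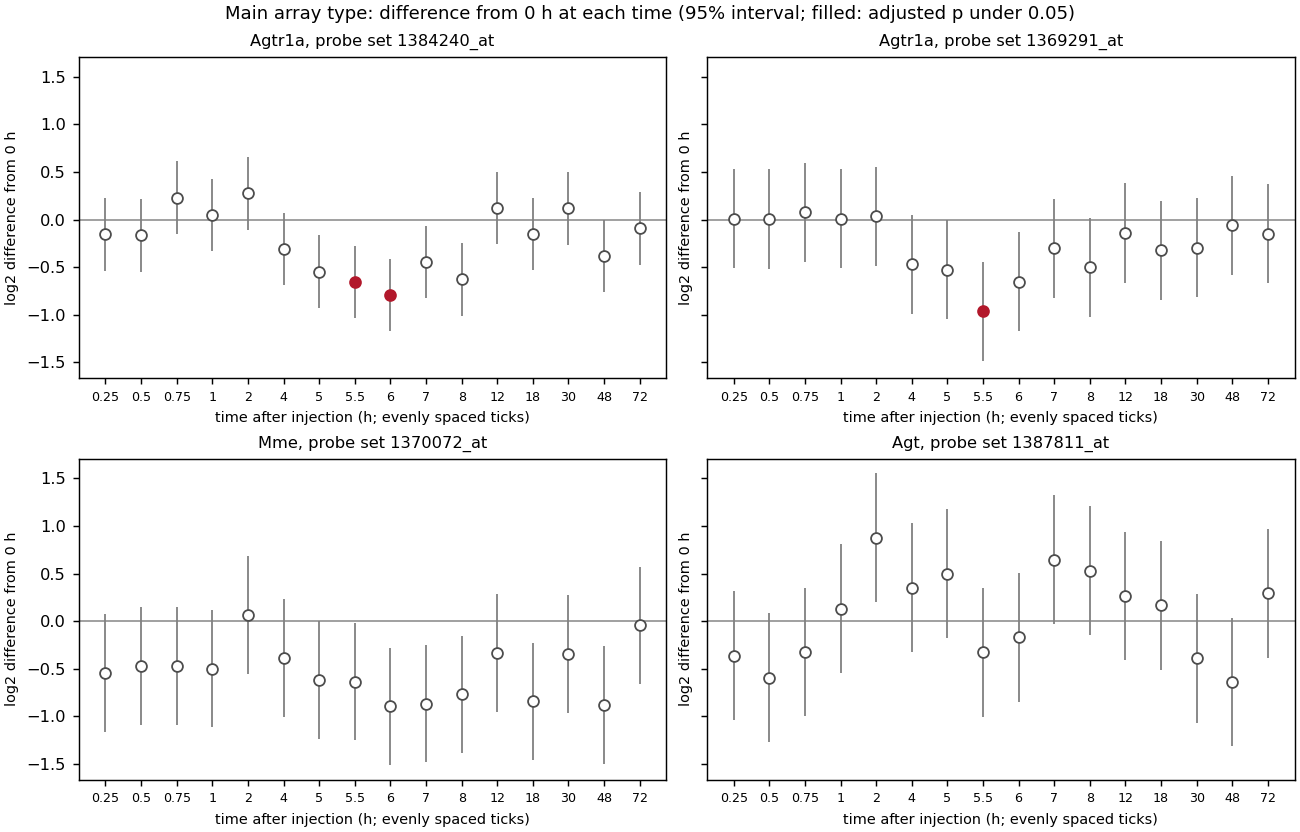
Difference from 0 h on the log2 scale at each of the 16 later times for the 4 tested member probe sets of the main type, with 95% intervals from limma; filled points passed at an adjusted p of 0.05. The filled points are Agtr1a 1384240_at at 5.5 and 6 h and 1369291_at at 5.5 h.

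Neprilysin was the other transcript to fall at 5 to 8 h. Mme probe set 1370072_at gave signals of 567, 508, 356 and 531 at 0 h. At 5.5 h it read 317, 329 and 282, at 6 h 272, 272 and 228, and at 8 h 265, 317 and 263. The 5 h and 7 h libraries were more spread, at 338, 174 and 515 and at 401, 261 and 171. Of the 15 libraries, 14 were below the 0 h mean, and 2 of the 15, at 401 and 515, lay within the untreated range. The log2 difference was -0.76 ± 0.23 (SE, limma, adjusted p = 0.0242), a 1.69-fold lower level. The adjusted p was 0.113, 0.0787 and 0.0889 without 0 h replicates 1, 2 and 4 in turn. Together, 3 of the 4 tested member probe sets were called lower at 5 to 8 h, against 4.73% of all probe sets tested. Of these 3, 2 are readings of Agtr1a in the same libraries, so they are not separate results. The median difference of the 4 was -0.60 against -0.035 over all probe sets tested.

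Outside this window Mme was low at several times without passing the test. All 12 libraries of 0.25 to 1 h lay below the 0 h mean, with a difference of -0.49 (limma, adjusted p = 0.694), where 0.662% of all probe sets passed and 634 had an unadjusted p under 0.05. At 12 to 18 h all 6 libraries lay below it, with a difference of -0.59 (limma, adjusted p = 0.81) and 0.389% of probe sets called, 544 at an unadjusted p under 0.05. Its signals at 18 h were 241, 220.2 and 356, at 48 h 215, 281 and 287, and at 72 h 672, 493 and 310.2. The 72 h libraries therefore spanned the untreated range, while those of 48 h were all below it. Against the late window of 30 to 72 h, the level at 5 to 8 h differed by -0.33 ± 0.17 (SE, limma, adjusted p = 0.144). At 6 h all 3 Mme libraries lay below all 3 at 30 h, as did all 3 Agtr1a 1384240_at libraries, so that 2 of 4 member probe sets showed this order against 12.2% of all.

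At 6 h, 3 of the 4 tested member probe sets (both of Agtr1a, and Mme) had every library below every library at 0 h, against 11.1% of all probe sets tested. Podocytes, which carry neprilysin, had a lower summed marker signal at 5 to 8 h and already at 2 to 4 h. At 2 to 4 h the sum was 696 to 913, and 3 of the 6 markers tested fell. Mme then differed from 0 h by -0.16 (limma, adjusted p = 0.738). Of 8 podocyte markers, 6 were tested at 5 to 8 h and 1 fell, with a median difference of -0.35 and a summed signal of 982 to 1311 at 0 h against 580 to 949 at 5 to 8 h. Of 8 endothelial markers tested 2 fell, with summed signals of 1725 to 2100 and 1357 to 2111, and of 4 smooth muscle, mesangium and pericyte markers none passed, with sums of 498 to 681 and 408 to 665. All 19 proximal tubule markers were tested, of which 2 rose and 4 fell, with a median of -0.10. Leukocyte markers, 8 of 11 above the filter, summed to 499 to 756 at 0 h and 619 to 2126 at 5 to 8 h. The part of these shifts in the falls of Agtr1a and Mme was not tested.

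Agt, the precursor, followed another course, with its highest time mean at 2 h. Probe set 1387811_at read 92.2, 68.3, 66.4 and 84.9 at 0 h. At 2 h it read 142, 175 and 131, so all 3 libraries lay above all 4 at 0 h, as 8.61% of all probe sets did. At 4 h the signals were 101, 89 and 113. The difference at 2 h was 0.88 ± 0.33 on the log2 scale (SE, limma, adjusted p = 0.157), and that of 2 to 4 h together 0.62 ± 0.28 (adjusted p = 0.168), so neither passed. No member probe set passed at 2 to 4 h, where 9.97% of all probe sets did and 2341 had an unadjusted p under 0.05. With the 7 libraries apart in acute phase genes left out, none of which is at 2 or 4 h, the same difference of 0.62 had an adjusted p of 0.0204.

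Outside 2 h, the highest Agt values lay in single libraries of 5, 7, 8 and 12 h. At 18 h the Agt signals were 62.2, 110 and 97.7. At 12 h they read 78.7, 73.9 and 143, and replicate 3, at 143, had an acute phase sum of 410, inside the untreated range of 210.1 to 425. At 5 h the replicates read 60.1, 211 and 109.5, at 7 h 80.3, 96.1 and 249.7, and at 8 h 249, 78.9 and 75.5. The 3 highest of all libraries, 5 h replicate 2, 7 h replicate 3 and 8 h replicate 1, were the libraries with the largest summed acute phase signals, 13481, 13303 and 9783, against 395 to 1486 in the other libraries of 5 to 8 h outside the 7. The remaining library of that window among the 7, 6 h replicate 1, had a sum of 2358 and an Agt signal of 83.2. Agt is itself induced in the acute phase response, and the part of that response in these values was not tested. At 5 to 8 h against 0 h Agt differed by 0.24 ± 0.25 (SE, limma, adjusted p = 0.636), and by -0.08 (adjusted p = 0.861) without the libraries apart.

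**Figure D3:**
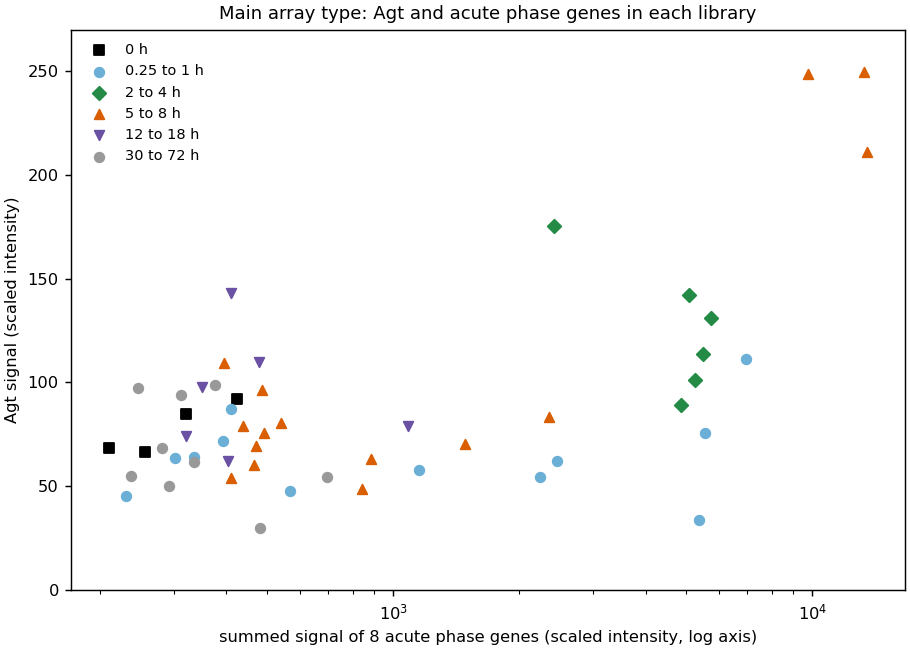
Agt signal of each main-type library (linear scale) against the summed signal of the acute phase genes (log axis). Markers and colours show the time window, and upward triangles are all 15 libraries of 5 to 8 h. The libraries whose acute phase genes stood apart are not marked here. The 3 libraries with summed signals of 9783 to 13481 carry the 3 highest Agt signals, and 0.5 h replicate 3, with a sum of 5355, has an Agt signal of 33.7.

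High acute phase signals did not always come with high Agt. The libraries 0.25 h replicate 2 and 0.5 h replicate 3 had sums of 5534 and 5355 and Agt signals of 75.8 and 33.7, inside and below the untreated range. The library 1 h replicate 2 had a sum of 6935 and an Agt signal of 111.5. At 2 and 4 h, where Agt was 89 to 175, the sums ran from 2421 to 5730, against 210.1 to 425 at 0 h. Hepatocyte markers summed to 1999 in 2 h replicate 2, the library with the highest Agt signal at that time, against 415 to 547 at 0 h. The call that Agt was higher at 5 to 8 h than at 30 to 72 h (0.48 ± 0.18, SE, limma, adjusted p = 0.0489, 11 of 15 libraries above the late mean) had an adjusted p of 0.378 and a difference of 0.17 without the 7 libraries apart. That call also missed the threshold under 6 of the other alternatives tried, with adjusted p-values of 0.0523 to 0.187.

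Agt was lowest at 48 h, at 29.9, 54.9 and 61.4, all below the untreated libraries. At this time 3 of the 4 tested probe sets (Agt, Agtr1a 1384240_at and Mme) had every library below every one at 0 h, against 6.08% of all, with differences of -0.64, -0.38 and -0.88. None passed the test at 48 h, where 683 of all probe sets had an unadjusted p under 0.05. At 72 h the Agt libraries read 93.7, 97.1 and 98.5, all above the untreated libraries, a difference of 0.29 (limma, adjusted p = 0.936). Those of Agtr1a 1384240_at read 162, 204 and 192. Over 30 to 72 h and over 48 to 72 h against 0 h, limma called 0 probe sets of the whole table, 0% in each, with 517 and 544 at an unadjusted p under 0.05. Mme differed by -0.42 and -0.46 in these comparisons.

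Across all 16 times, the F test called 2 of the 4 tested member probe sets, against 16.1% of all probe sets. Agtr1a 1384240_at had an adjusted p of 0.000222 and Agt 0.0138 by limma, while Agtr1a 1369291_at had 0.0789 and Mme 0.186. Without the libraries apart in acute phase genes all 4 passed, with adjusted p-values of 0.0312 for 1369291_at and 0.0495 for Mme. The highest and lowest time means differed by 1.07 (log2) for 1384240_at, 1.04 for 1369291_at, 0.96 for Mme and 1.52 for Agt. For each of the 4, all 16 neighbouring times in the order of the means had overlapping libraries and a gap within the larger SD.

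Ace, the converting enzyme, could not be followed on the main type at these signals. Probe set 1387791_at read 32.4, 30.8, 34.8 and 30.1 at 0 h and 14.8 to 91 over all libraries, and 1370028_at read 1.3 to 29.5. Both were below the filter signal of 52.3. In a fit with no filter, their differences at 5 to 8 h were 0.17 (limma, adjusted p = 0.785) and -0.003 (adjusted p = 0.998). The highest single value of 1387791_at, 91, was in 7 h replicate 3, which is 1 of the libraries apart in acute phase genes.

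On the second array type, the 4 Agtr1a probe sets were all lower at 6 h than at 0 h in every library, with none passing the test. M86912exon_at read 183, 181, 239 and 188 at 0 h and 103, 117 and 115 at 6 h, a difference of -0.80 ± 0.24 (SE, limma, adjusted p = 0.147). M86912exon_g_at read 168, 131, 184 and 258 at 0 h and 131, 101 and 74 at 6 h, a difference of -0.83 ± 0.27 (SE, limma, adjusted p = 0.186). X62295cds_s_at read 113, 123, 121 and 139 and then 103, 93 and 60.3. M74054_s_at, the dimmest, read 42.5, 56.4, 57.1 and 66.1 and then 40.4, 18.5 and 3.98, so its difference of -1.59 ± 0.46 (SE, limma, adjusted p = 0.119) rests partly on 1 library near the pseudocount. Probe sets whose names end in _s_at can read several related transcripts, and Agtr1b is a near copy of Agtr1a, so these 2 readings are uncertain between them.

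Mme was lower than at 0 h at both times on the second type. Probe set rc_AA894298_s_at read 182, 146, 124 and 134 at 0 h, 71.3, 56.4 and 35 at 2 h, and 123, 119 and 34.2 at 6 h. It too has a name ending in _s_at, so it can read several related transcripts. Its difference at 2 h was -1.42 ± 0.39 (SE, limma, adjusted p = 0.0443), a 2.67-fold lower level, against 4.98% of all probe sets called lower. That call ended without any one of the 4 libraries at 0 h, or without replicate 2 or 3 at 2 h, with adjusted p-values of 0.0738 to 0.0958. M15944_at read 271, 245, 229.8 and 215 at 0 h, 224, 76.7 and 109.9 at 2 h, and 168, 109 and 97.7 at 6 h. It differed by -0.93 ± 0.32 at 2 h (SE, limma, adjusted p = 0.0825) and by -0.96 ± 0.32 at 6 h (adjusted p = 0.207).

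**Figure D4:**
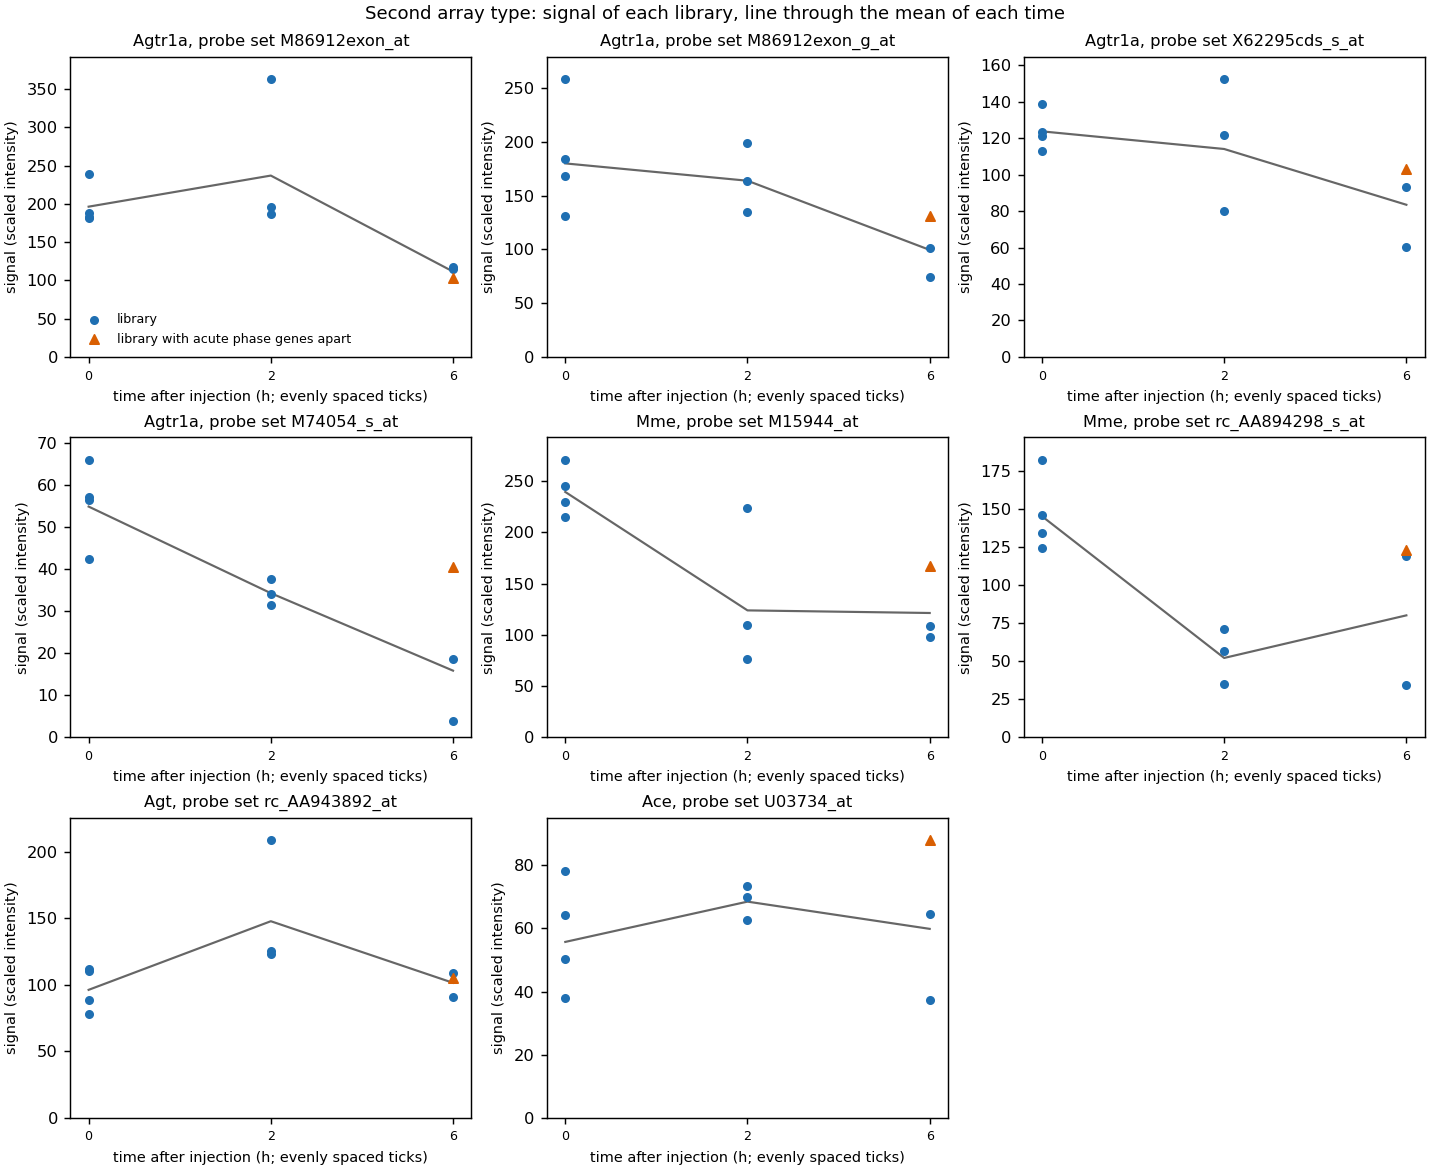
Signal of each library (linear scale) at 0, 2 and 6 h after the injection for the 8 member probe sets of the second array type; triangles mark the library whose acute phase genes stood apart. The 4 Agtr1a probe sets and both Mme probe sets have the 3 libraries at 6 h below the lowest at 0 h, and Agt has its 3 highest libraries at 2 h.

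Of the 8 member probe sets of the second type, 6 had every library at 6 h below every library at 0 h, against 8.01% of all probe sets tested. These 6 are not separate readings, since 4 are of Agtr1a and the others of Mme, in the same libraries. The highest library at 6 h was close to the lowest at 0 h for M86912exon_g_at (131.2 against 131.3) and rc_AA894298_s_at (123.0 against 124.5). The adjusted p-values of the 6 by limma ran from 0.119 to 0.501. Limma called 2.35% of all probe sets in either direction at 6 h, 559 having an unadjusted p under 0.05. The 8 differences had a median of -0.81 against -0.025 over all. At 2 h, 2 of the 8 (M74054_s_at and rc_AA894298_s_at) had every library below those at 0 h, against 13.4% of all, and 1, Agt, had every library above, against 10.9%. Agt rc_AA943892_at read 88.8, 78.4, 110.3 and 112 at 0 h, 125, 209 and 123 at 2 h, and 105, 91.2 and 109 at 6 h. Its difference at 2 h was 0.60 ± 0.23 (SE, limma, adjusted p = 0.110). That difference was 0.36 without 2 h replicate 2, the library at 209, whose hepatocyte markers summed to 1797 against 447 to 520 at 0 h. The part of those markers in the Agt difference was not tested. Ace U03734_at read 50.2, 78.3, 37.8 and 64.4 at 0 h, 73.4, 69.9 and 62.7 at 2 h, and 88, 64.5 and 37.4 at 6 h, so its groups overlapped throughout.

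Both tables were scaled separately, and their levels are set side by side only. For Agtr1a at 6 h and Agt at 2 h the differences had the same sign in both tables for every probe set. For Mme at 2 h they did not. The main type gave 443, 794 and 366, a difference of 0.06, and the second type gave the 2 falls above. Replicate 2 at 2 h had the highest Mme signal of all main-type libraries, 794, while M15944_at in the second-type library of that number was the lowest at that time, 76.7. Hepatocyte markers were high in both libraries, at 1999 and 1797, against 447 to 520 at 0 h on the second type. Whether libraries of one number share RNA is not stated, but their deviations from the time means correlated with r of 0.188 to 0.557 across 2455 genes in the 10 pairs, against at most 0.0964 for other numbers. Genes are not independent replicates.

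Several other genes of the pathway also fell at 5 to 8 h. Of 38 genes listed as angiotensin enzymes, angiotensin receptors, aldosterone arm, and kinin, natriuretic peptide and endothelin genes, 13 were tested on the main type, of which 5 fell and 0 rose, where 4.73% of all probe sets were called lower. Their median difference was -0.29 against -0.035 over all probe sets tested. The list was chosen with earlier results of these data known. Among the angiotensin enzymes, 2 of 5 fell: Prep, a prolyl peptidase that cleaves small peptides including angiotensins, by 0.66 (limma, adjusted p = 0.000525), and Anpep, the brush border aminopeptidase N, by 0.43 (adjusted p = 0.0168). Anpep is also in the list of proximal tubule markers, so its fall is counted there as well. Enpep, which converts angiotensin II to angiotensin III, differed by -0.29 (adjusted p = 0.141), Rnpep by -0.28 and Ctsa by -0.00.

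Agtrap, which binds the type 1 receptor and promotes its removal from the cell surface, was the 1 receptor-list gene tested and fell by 0.61 (limma, adjusted p = 0.000515). In the aldosterone arm 2 of 3 fell. The glucocorticoid receptor Nr3c1 fell by 0.63 (adjusted p = 2.11e-05) and the mineralocorticoid receptor Nr3c2 by 0.53 (adjusted p = 0.0445), while Hsd11b2, which inactivates glucocorticoids in aldosterone target cells, differed by -0.25. Of the 4 kinin, natriuretic peptide and endothelin genes none passed, with Npr2 at -0.37, Ece1 at 0.24, Klk1 at 0.01 and Edn1 at 0.00.

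**Figure D5:**
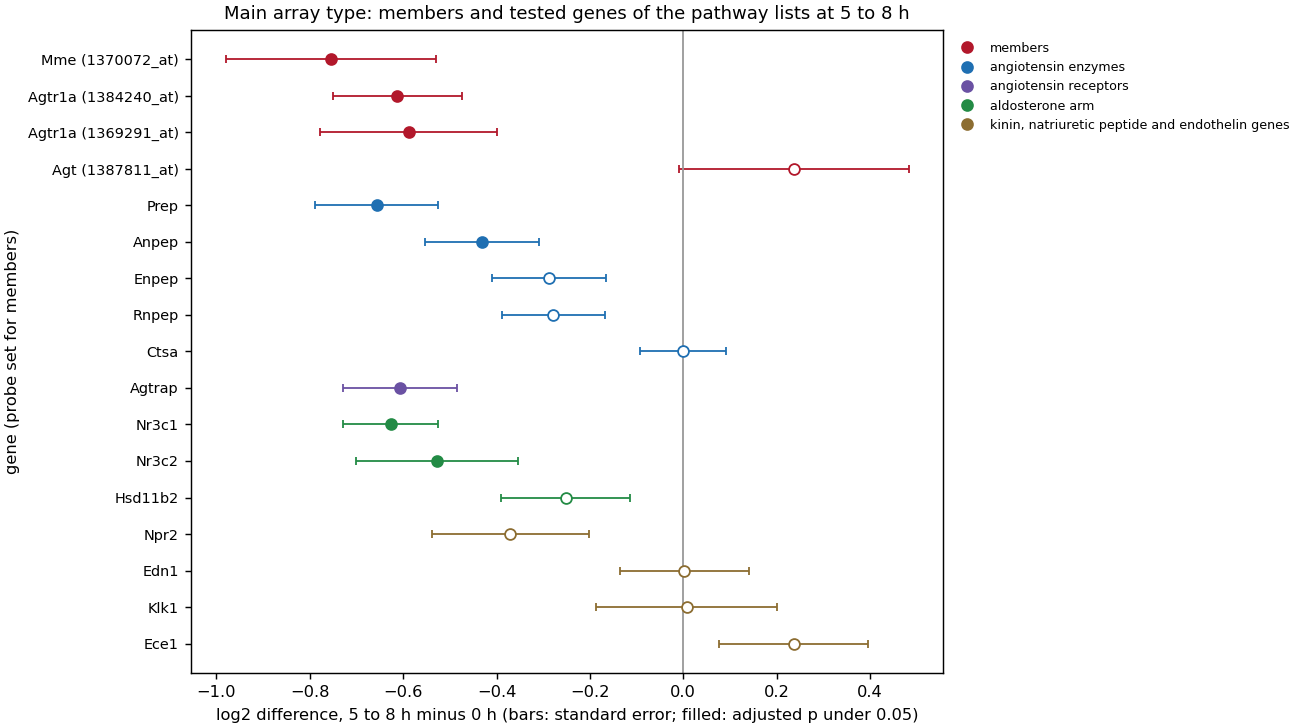
Difference of 5 to 8 h from 0 h on the log2 scale, with SE bars, for the 4 tested member probe sets and the 13 tested pathway genes of the main type; filled points passed at an adjusted p of 0.05. The 3 member probe sets and 5 pathway genes that passed were all lower, from -0.43 for Anpep to -0.76 for Mme.

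At 2 to 4 h, 3 of the 13 fell and 0 rose, Nr3c2 by 0.80, Nr3c1 by 0.79 and Agtrap by 0.57, where 9.97% of all probe sets passed in either direction. The median was then -0.19 against -0.07 over all. At 12 to 18 h, 0 of 13 passed by limma, and 0.389% of all probe sets did, with a median of -0.08 against -0.01 over all. Edn1, the endothelin 1 precursor, rose by 0.67 at 0.25 to 1 h (limma, adjusted p = 0.00771). The F test called 7 of the 13, and 16.1% of all probe sets. On the second type 20 of the listed genes were tested. At 2 h Edn1 rose by 1.45 (adjusted p = 0.00295) and Hsd11b2 fell by 0.82 (adjusted p = 0.0495), and at 6 h Prep fell by 0.94 (adjusted p = 0.0395), against 9.80% and 2.35% of all probe sets called in either direction. The medians of the 20 were -0.05 at 2 h and -0.07 at 6 h, against -0.07 and -0.025 over all, with 10 and 11 of 20 genes below 0. Nr3c2 differed by -0.41 at both times on that type, with adjusted p-values of 0.263 and 0.621.

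The courses of the 4 genes were not alike. Over the 17 time means, the 2 Agtr1a probe sets correlated with r = 0.788, and with r = 0.666 over the 52 libraries. Mme correlated with Agtr1a 1384240_at at r = 0.696 over time means and 0.405 over libraries. Agt correlated with the other 3 at r between -0.096 and 0.227 over time means. The genes whose time means were most like those of Agtr1a 1384240_at, among 8067 compared, were Tcf4 (r = 0.885), Zzz3 (r = 0.868) and Lims1 (r = 0.864), with 0.575, 0.574 and 0.550 over libraries. Those most like Agt were Cep43 (r = 0.805), Nipsnap3b (r = 0.800) and Cdo1 (r = 0.783), with 0.458, 0.604 and 0.705 over libraries. All points of a correlation share the same arrays, and these values are descriptions.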

How the data were processed

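The deposited values are intensities on a linear scale, 1 per probe set and array, which the authors had scaled: after leaving out 2% at each end, array means were 150.03 to 150.04 on the main type (53 arrays, 15923 probe sets) and 150.19 to 150.23 on the second (10 arrays, 8799). The algorithm behind them was not given in the sources used here. For arrays their number limits the precision. Both tables were scaled separately, so tests ran within a table.

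A pseudocount, the 10th percentile of each table (7.63 and 3.56), was added before taking log2, which understates differences of dim probe sets. Control probe sets (57 and 59) were removed, and probe sets at or above the 40th percentile of mean log2 level were tested (9520 and 5244, from signals of 52.3 and 25.3). Limma 3.58.1 in R 4.3.3 fitted all times of a table together, with a mean-variance trend and Benjamini-Hochberg adjustment over all probe sets tested at 0.05. Figures used Python 3.11.15 and matplotlib 3.10.9. In tests on simulated data for 5 to 8 h against 0 h, with 9520 probe sets, 94% of changes of 1 log2 unit were recovered. Changes below 1 log2 unit, such as those of the members in this window, were not simulated.

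Gene names are those of GEO's platform table, brought up to date by gene identifier with GRCr8 tables. Promoters of 3 of the 4 genes were matched by symbol. A probe set naming several genes, Ace among them, was left out. Every member probe set was named, pathway genes by passing at 5 to 8 h (besides Nr3c2, and values for the rest given for contrast), and the 3 genes most correlated with members that passed the F test. Members and lists were chosen with earlier results of these data known. Same-numbered libraries did not deviate together on the main type (median r = 0.057, -0.528 to 0.489, 408 pairs). They did on the second (0.145 to 0.278 in 9 pairs). The tests reported above used no pairing on either type, and the replicate block was run only as an alternative. The alternatives tried were the filter, pseudocount, scaling, moderation, array weights, replicate block, compared times alone, arrays lettered b or c, and each library left out; leaving out libraries apart in acute phase genes was chosen after seeing the data.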

Additional observations from a re-analysis of the deposited data

Results flagged for a closer look

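1 of 14 untreated groups tested held a library far from the other 3 by Dixon's criterion: Agtr1a M86912exon_at on the second type, where 0 h replicate 3 had a signal of 239.157 and the others 181 to 188. Chance flags about 1 in 20 groups. All 3 libraries at 6 h, at 103 to 117, lay below the other 3 as well.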

How the results depend on the processing

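No member difference with a call changed sign under any alternative run. Counts of called member probe sets moved by over 1.5 times as follows. Array weights gave 1 at 2 to 4 h, 4 by the F test, 0 on the second type at 2 h and 4 on it at 6 h. The fit with compared times alone gave 1 at 2 to 4 h, 0 at 6 h against 30 h (Agtr1a 1384240_at, adjusted p = 0.0597) and 2 on the second type at 6 h. Without the arrays lettered b or c there was 1 at 5 to 8 h against 30 to 72 h and 1 by the F test, and on the second type 3 at 2 h and 2 at 6 h. With no filter the second type gave 0 at 2 h. Without the libraries apart in acute phase genes there was 1 at 2 to 4 h, 4 by the F test and 1 on the second type at 6 h; with 2 h replicate 2 left out too, 1 at 2 to 4 h, and 0 and 2 on the second type. The cause was not tested. Smaller moves came from single calls. Agtr1a 1369291_at at 5 to 8 h also missed the threshold with no filter (adjusted p = 0.0624), with compared times alone (0.111) and without the arrays lettered b or c (0.0609), which left 2 of 3 calls. Agt at 5 to 8 h against 30 to 72 h missed it under 8 of 11 alternatives besides the leave-outs: 4 times the pseudocount (0.0523), no filter (0.0708), array weights (0.108), replicate block (0.0529), compared times alone (0.117), without the arrays lettered b or c (0.187), and both settings without the libraries apart (0.378 and 0.379).

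With the replicate block on the main type, whose numbers do not pair libraries, 1 probe set was called at 5 to 8 h: Agtr1a 1384240_at differed by -0.53 (limma, adjusted p = 0.0246), Mme by -0.71 (0.078) and Agtr1a 1369291_at by -0.50 (0.169). On the second type the block changed no call. Leaving out 1 library at a time, the counts ran from 1 to 3 at 5 to 8 h (1 without 0 h replicate 1, 2 or 4), 1 to 3 against 30 to 72 h (1 without 48 h replicate 2), 0 to 1 at 6 h against 30 h, 2 to 3 by the F test, and on the second type 0 to 2 at 2 h and 0 to 1 at 6 h. The call on Agtr1a 1384240_at at 5 to 8 h held in all 52 leave-outs, that on Mme in all but 3 (adjusted p up to 0.113), and that on Agt against 30 to 72 h was lost in 35 (up to 0.135).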
